A study of Mus musculus with 6 samples.

Results

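Macrophages that take up dying cells recognise phosphatidylserine, a lipid that healthy cells keep on the inner face of the plasma membrane and dying cells display outside. The genes of this route were chosen by name with earlier results of these data known: the bridging proteins Mfge8, Gas6 and Pros1, the TAM receptor tyrosine kinases Axl, Tyro3 and Mertk, the endocytic receptor Lrp1, and the uptake machinery Elmo1, Dock1 and Gulp1. These 10 genes were among 56092 gene symbols in the expression table. 8 of them had enough reads to be tested, and Mertk and Gulp1 did not.

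The cells were RAW264.7, a mouse macrophage line, carrying a stable lentiviral vector with either a control hairpin (shNC, labelled an empty vector control) or a hairpin against Trem2 (shTrem2), a macrophage receptor for lipids and cell debris. The cells of both groups were stable, puromycin-selected transductants made with vectors that carry GFP. Both received IL-4 at 20 ng/ml for 24 h and then debris of renal tubular epithelial cells, prepared by freezing and thawing the mouse tubular line TCMK-1. Each group held 3 polyA-selected RNA-seq libraries. The comparison asks how the transcripts of the phosphatidylserine route differed when Trem2 was lowered in debris-fed, IL-4-treated cells. No library without IL-4 or without debris was compared, so a response to either cannot be read from these values. The labels do not say which of the Trem2 hairpins was used, and they do not say that either group held more than 1 line. Nothing in the labels says that the replicates were separate cultures, so the p-values measure only the spread between these libraries.

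Gas6 and protein S, the product of Pros1, are vitamin K-dependent proteins that bind phosphatidylserine at one end and a TAM receptor at the other. Mfge8, also called lactadherin, binds the same lipid and holds the dying cell to αv integrins of the phagocyte. Downstream, Gulp1 is an adaptor that binds the tail of Lrp1, and Elmo1 with Dock1 forms the exchange factor that activates the GTPase Rac and drives the membrane around the prey.

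Named reads per library ranged from 15876061 to 19655158, and 3 counts, taken as the detection floor, corresponded to 0.153 to 0.189 CPM (counts scaled to the library total) in a library. Trem2 itself read 116, 124 and 145 CPM in shNC and 63.8, 62.5 and 79.2 CPM in shTrem2. The groups did not overlap, and Trem2 was lower in shTrem2 with a log2 fold change of -0.87 (SE 0.09) and an adjusted p of 3.39e-06 in the quasi-likelihood test of edgeR, adjusted by Benjamini-Hochberg over 13528 genes. The size of the difference depended on the unit. The deposited FPKM of Trem2, fragments scaled to transcript length and library size, averaged 178 ± 28.5 in shNC and 41.7 ± 4.14 in shTrem2 (SD, n = 3 each), and on the log2(FPKM + 0.1) scale the difference was -2.08. All 8 macrophage markers were detected in every library. Their summed level was 5504 to 6444 CPM in shNC and 10360 to 11700 CPM in shTrem2, of which Lyz2 made up 2834 ± 345 and 7270 ± 534 CPM (SD, n = 3 each). Of 12 tubular epithelial markers, listed as possible marks of debris RNA, Epcam, Krt8, Krt18, Krt19, Cdh1, Cldn3 and Umod had 0 counts in all libraries. No library of TCMK-1 cells was among these data, so whether the debris carried RNA of these markers was not tested. The summed tubular level was 0.337 to 0.553 CPM in shNC and 0.102 to 0.207 CPM in shTrem2, mostly Lrp2, with at most 8 counts. The markers did not move together: at the adjusted p 6 were higher and 2 lower, with Itgam going from 471 ± 2.92 to 267 ± 10.3 CPM and Adgre1 from 127 ± 9.16 to 84.4 ± 9.74 CPM, while Cd68 had a log2 fold change of 0.12. The part of these marker differences in the results below was not tested.

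A gene was called when its adjusted p was under 0.05 and its fold change over 1.5. Of the 8 tested genes, Mfge8, Pros1 and Axl fell and Dock1 rose by this rule. Over all tested genes 21.8% were called, 9.46% higher and 12.4% lower in shTrem2. At the adjusted p alone Lrp1 rose too, which made 2 genes higher and 3 lower, 5 of the 8, against 28.8%, 28.6% and 57.4% of all genes. Tyro3, Gas6 and Elmo1 did not pass. The groups did not overlap for Mfge8, Pros1, Axl, Lrp1 and Dock1, 5 of 8, whereas 63.5% of all tested genes showed no overlap, so non-overlap by itself was common in these libraries. The median log2 fold change of the 8 genes was -0.20, against a median of 0.00 over all tested genes. In these bulk samples fewer cells of a type and less RNA per cell cannot be told apart.

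**Figure D1:**
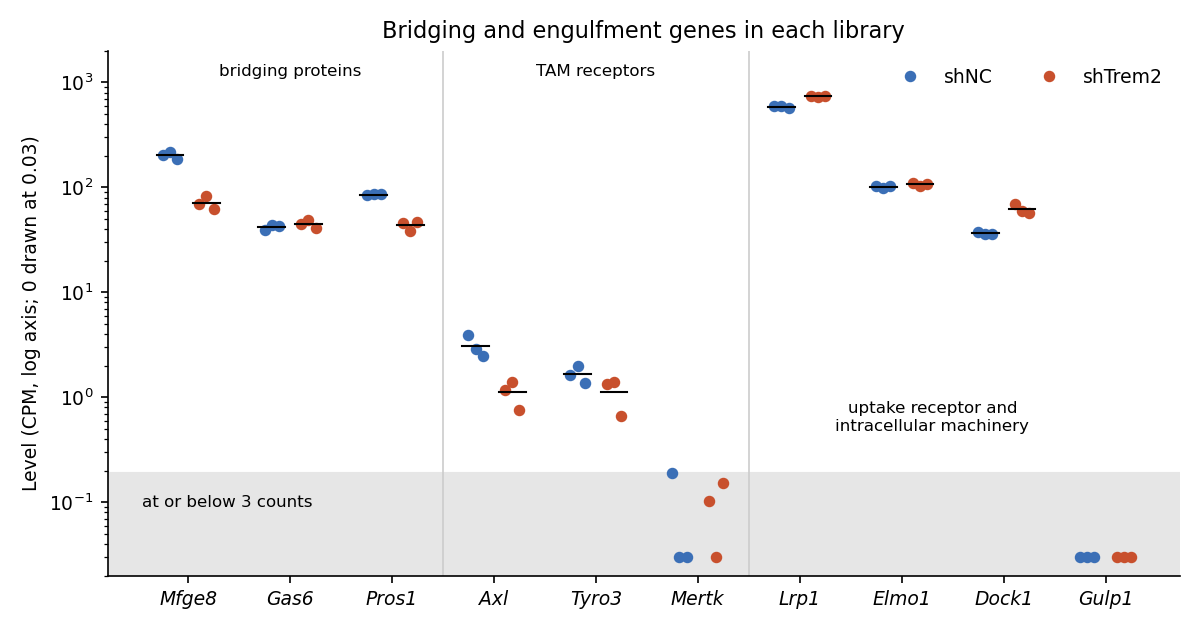
CPM of each of the 10 genes in every library, on a log axis, with a line at the group mean where the gene was tested. The shaded band marks values at or below 3 counts, where Mertk and Gulp1 lie (0 is drawn at 0.03). The 3 shTrem2 libraries lie below the shNC libraries for Mfge8, Pros1 and Axl and above them for Lrp1 and Dock1.

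**Figure D2:**
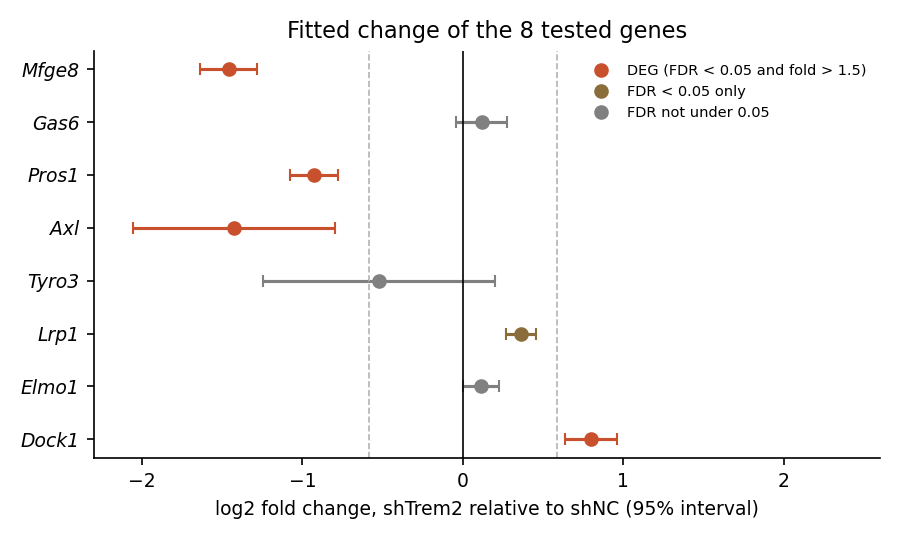
Log2 fold change of each tested gene, shTrem2 against shNC, with a 95% confidence interval derived from the F statistic of the edgeR test. Dashed lines mark the fold threshold of 1.5. The points of Mfge8 and Axl lie furthest below 0 and that of Dock1 furthest above it.

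The promoters of the 4 called genes are shown because these are the members of the route that moved past both thresholds. The sequences are the 250 bases before each start site, from RefSeq on GRCm38.p6, in the direction of transcription, with GC boxes (GGGCGG on either strand) in capitals. Mfge8 lies at chr7:79149061-79149310 (minus strand), Pros1 at chr16:62854057-62854306 (plus), Axl at chr7:25788734-25788983 (minus) and Dock1 at chr7:134670437-134670686 (plus).
Mfge8: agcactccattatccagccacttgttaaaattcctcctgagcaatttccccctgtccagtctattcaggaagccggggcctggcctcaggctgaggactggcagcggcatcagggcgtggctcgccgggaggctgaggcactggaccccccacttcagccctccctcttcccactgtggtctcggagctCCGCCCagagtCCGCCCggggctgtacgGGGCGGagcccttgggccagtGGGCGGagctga
Pros1: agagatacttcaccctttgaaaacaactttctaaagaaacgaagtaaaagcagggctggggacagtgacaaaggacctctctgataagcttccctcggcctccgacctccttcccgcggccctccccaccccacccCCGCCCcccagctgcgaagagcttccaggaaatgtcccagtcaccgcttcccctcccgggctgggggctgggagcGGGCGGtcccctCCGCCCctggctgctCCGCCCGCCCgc
Axl: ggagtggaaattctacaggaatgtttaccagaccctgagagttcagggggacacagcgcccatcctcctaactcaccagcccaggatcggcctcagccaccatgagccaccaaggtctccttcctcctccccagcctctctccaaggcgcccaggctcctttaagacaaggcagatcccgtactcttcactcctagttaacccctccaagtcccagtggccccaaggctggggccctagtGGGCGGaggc
Dock1: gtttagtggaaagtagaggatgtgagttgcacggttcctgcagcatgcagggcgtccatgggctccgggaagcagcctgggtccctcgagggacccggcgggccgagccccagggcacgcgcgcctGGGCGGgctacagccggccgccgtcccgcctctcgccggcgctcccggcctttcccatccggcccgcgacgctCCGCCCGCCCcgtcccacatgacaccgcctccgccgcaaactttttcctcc

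Those stretches held 4 GC boxes in Mfge8, 5 in Pros1, 1 in Axl and 3 in Dock1. Counting 50 bases past the start as well, a GC box stood in 10 of the 11 windows of the 10 genes, against 35.7% of 32851 windows of all genes and 61.2% of 12214 windows of tested genes. The rising gene and the falling genes shared this motif. The median GC content of the 11 windows was 64.3%, against 60.3% for the windows of tested genes. None of the windows held the AP-1 letters TGACTCA or TGAGTCA, the E-box CACGTG or the nuclear receptor half-site AGGTCA, which stood in 5.20%, 7.15% and 16.3% of all windows and in 3.68%, 9.95% and 12.6% of the windows of tested genes. The letters CCAAT stood in 1 of the 11 windows, of Elmo1, against 37.4% of all windows and 38.2% of those of tested genes. The PU.1 letters GAGGAAGT occurred in 1 window, of Elmo1, and 3.20% of all windows and 3.27% of those of tested genes held them. A match in these windows is a description of letters and not of binding.

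Among the bridging proteins, Mfge8 and Pros1 fell and Gas6 did not pass the test. Mfge8 (ENSMUSG00000030605) read 201, 219 and 185 CPM in shNC and 69.9, 82.1 and 62.8 CPM in shTrem2. The highest shTrem2 library stayed well under the lowest shNC library. The group means were 202 ± 16.6 and 71.6 ± 9.74 CPM (SD, n = 3 each), a log2 fold change of -1.46 (SE 0.08, 95% interval -1.64 to -1.28) with an edgeR adjusted p of 8.43e-09.

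The reads of Mfge8 came from 2 transcripts, which held 98.3% to 99.6% of its counts. The table numbers transcript rows without naming them, so the rows were matched through lengths in GENCODE M21. The pair Mfge8-201 (2125 bases) and Mfge8-202 (2008 bases) rebuilt the deposited FPKM of the gene with a largest error of 0.00392%, against 1.43% for the next best pair, Mfge8-202 with Mfge8-209, and 2.59% with the 2 names exchanged, each taken as the best of 40320 ways to place the minor rows. They differ in a cassette exon, exon 4 of 10 in Mfge8-201, at chr7:79143278-79143388 on GRCm38, minus strand. It has 111 bases, is coding and keeps the frame with 37 codons. The lengths of the 2 transcripts differ by slightly more than these 111 bases, so the exon is not their only difference.
Mfge8 cassette exon: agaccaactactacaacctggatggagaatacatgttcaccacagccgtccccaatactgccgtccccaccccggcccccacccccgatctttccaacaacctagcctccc

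The transcript with the exon, Mfge8-201, read 88.9, 114 and 86.6 CPM in shNC and 25.8, 26.4 and 18.7 CPM in shTrem2. The transcript without it, Mfge8-202, read 110, 101 and 97.0 CPM in shNC and 43.3, 55.4 and 43.5 CPM in shTrem2. Both were lower in every shTrem2 library, with log2 ratios of the group means of -2.03 and -1.12. The share of Mfge8-201 in the 2 transcripts was 44.7%, 52.9% and 47.2% in shNC and 37.4%, 32.2% and 30.0% in shTrem2, so the groups did not overlap. The means of 48.3% ± 4.17 and 33.2% ± 3.76 (SD, n = 3 each) differed by -15.0 percentage points, with a two-sided exact permutation p of 0.1, the smallest that 3 against 3 libraries can give. This split was looked at after the transcript rows had been seen, and it rests on estimated counts of 2 transcripts that share most of their sequence.

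**Figure D3:**
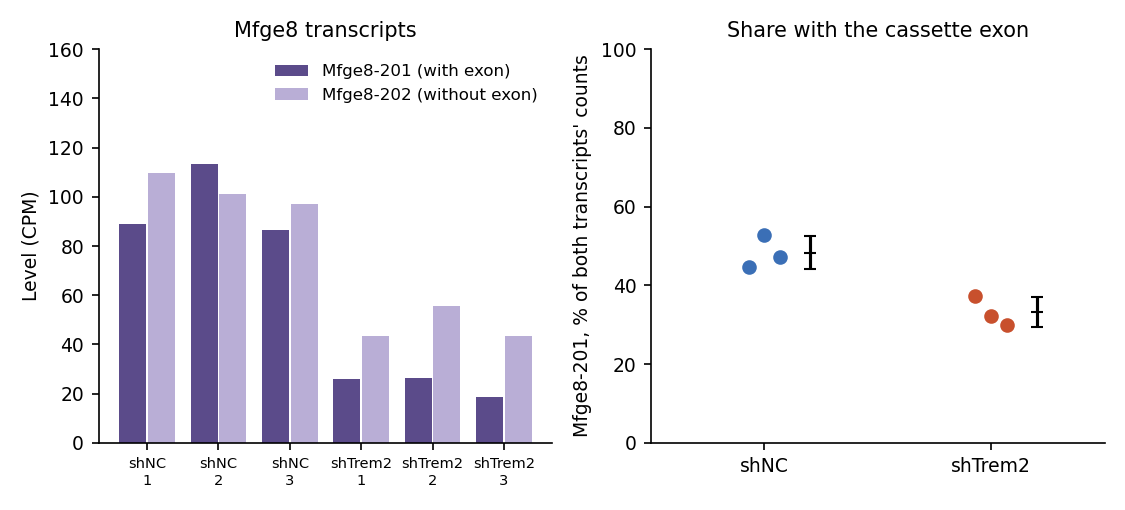
Left, CPM of the Mfge8 transcripts with (Mfge8-201) and without (Mfge8-202) the cassette exon in each library. Right, the share of Mfge8-201 in both, in percent, with bars for the mean and SD, which was 44.7 to 52.9 in shNC and 30.0 to 37.4 in shTrem2.

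Pros1 (ENSMUSG00000022912) read 84.3, 86.5 and 85.6 CPM in shNC and 45.8, 38.7 and 47.1 CPM in shTrem2. The shNC libraries were close to each other and none approached the shTrem2 range. The means were 85.5 ± 1.10 and 43.9 ± 4.54 CPM (SD, n = 3 each), a log2 fold change of -0.93 (SE 0.07, 95% interval -1.08 to -0.78) and an edgeR adjusted p of 1.20e-07. Between 99.2% and 100% of its counts lay in 1 transcript row.

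Gas6 (ENSMUSG00000031451), the other TAM ligand, read 39.6, 44.0 and 43.3 CPM in shNC and 44.7, 49.1 and 40.9 CPM in shTrem2. The groups overlapped. The log2 fold change was 0.12 (SE 0.07, 95% interval -0.04 to 0.28), with an edgeR adjusted p of 0.192, so a rise of up to 0.28 or a small fall remained within the interval.

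Per length, the 2 TAM ligands changed order. The ratio of Gas6 to Pros1 in FPKM was 0.626, 0.681 and 0.677 in shNC and 1.31, 1.67 and 1.12 in shTrem2. Pros1 was the higher ligand transcript in each shNC library and Gas6 in each shTrem2 library. The log2 ratio differed by 1.03 between the groups, with a two-sided exact permutation p of 0.1, the smallest possible here.

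Among the TAM receptors, Axl fell, Tyro3 did not pass and Mertk was not detected. All 3 were scarce. Axl (ENSMUSG00000002602) had 62, 51 and 45 counts in shNC and 23, 27 and 15 counts in shTrem2, or 3.91, 2.87 and 2.49 CPM and 1.18, 1.39 and 0.763 CPM. The groups did not overlap. The log2 fold change was -1.43 (SE 0.29, 95% interval -2.06 to -0.79) and the edgeR adjusted p 9.19e-04. The interval was wider than those of the other called genes, and no library held more than 62 reads of Axl.

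Tyro3 (ENSMUSG00000027298) had 26, 35 and 25 counts in shNC and 26, 27 and 13 counts in shTrem2. Its log2 fold change was -0.52 (SE 0.34, 95% interval -1.24 to 0.20), with an edgeR adjusted p of 0.203, and the groups overlapped. Mertk (ENSMUSG00000014361) had 3, 0 and 0 counts in shNC and 2, 0 and 3 counts in shTrem2, all at or under the floor, and no fold change was given. A difference in Mertk was not detectable at this depth.

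By deposited FPKM, Axl made up 84.6%, 74.4% and 79.2% of the summed TAM receptor level in shNC and 45.2%, 47.9% and 50.0% in shTrem2. In shNC Axl was the leading TAM receptor transcript, and in shTrem2 Axl and Tyro3 were close. The difference of the mean shares was -31.7 percentage points, with a two-sided exact permutation p of 0.1, the smallest possible. The size depended on the transcript rows behind the FPKM. Rows of Axl other than the full-length ones held 3.81, 1 and 1 counts in shNC. An FPKM rebuilt from the full-length rows, with transcript lengths of GENCODE M21, nevertheless left 67.8%, 52.8% and 56.7% of the deposited Axl value there to be carried by those other rows, and 70.8% in shTrem2 replicate 3. By estimated counts the mean share of Axl went from 63.9% ± 4.43 to 47.8% ± 2.50 (SD, n = 3 each). From full-length rows alone, a setting chosen after seeing the data, it went from 61.5% ± 3.52 to 48.5% ± 1.14, a difference of -13.0 points. Tyro3 in shTrem2 replicate 3 read 0.53 FPKM as deposited and 0.114 from its full-length row. The mean Tyro3 share differed by 29.2 points by deposited FPKM (two-sided exact permutation p of 0.1). From full-length rows it differed by 7.20 points, with a p of 0.3 in the same test.

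**Figure D4:**
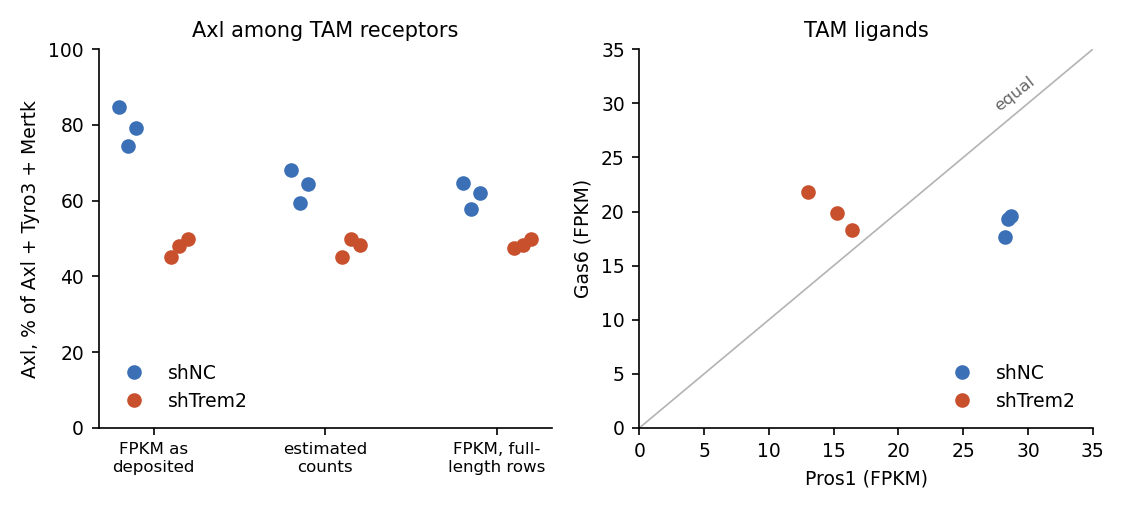
Left, Axl as a percentage of the TAM receptor level in each library, by deposited FPKM, estimated counts and full-length rows, with the shTrem2 libraries below the shNC libraries in all 3 versions. Right, Gas6 against Pros1 FPKM in each library, with a line where both are equal and the groups on opposite sides of it.

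In the uptake receptor and machinery, Lrp1 and Dock1 rose while Elmo1 did not pass. Lrp1 (ENSMUSG00000040249), which also takes up calreticulin-coated prey, read 599, 596 and 567 CPM in shNC and 746, 721 and 749 CPM in shTrem2. All shTrem2 libraries were higher than all shNC libraries. The log2 fold change was 0.37 (SE 0.04, 95% interval 0.27 to 0.46), a 1.29-fold difference that passed the edgeR adjusted p (7.98e-06) and not the fold threshold.

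Dock1 (ENSMUSG00000058325) read 37.5, 35.8 and 35.8 CPM in shNC and 69.3, 59.2 and 57.2 CPM in shTrem2. The groups were separate. The log2 fold change was 0.80 (SE 0.08, 95% interval 0.64 to 0.96), or 1.74-fold, with an edgeR adjusted p of 8.90e-07. Its partner Elmo1 (ENSMUSG00000041112) read 104, 98.0 and 103 CPM in shNC and 111, 103 and 108 CPM in shTrem2, with overlapping groups, a log2 fold change of 0.11 (SE 0.05, 95% interval 0.00 to 0.22) and an edgeR adjusted p of 0.0709. Without shTrem2 replicate 2 the Elmo1 value was 0.15 with an adjusted p of 0.0350. Gulp1 (ENSMUSG00000056870) had 0 counts in all 6 libraries, which allows up to 0.153 to 0.189 CPM in a library.

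Levels can be ordered between genes per length. In shNC the mean FPKM was 116 ± 9.44 for Mfge8 and 109 ± 1.74 for Lrp1, whose libraries overlapped, then 28.5 ± 0.250 for Pros1, 23.8 ± 2.41 for Elmo1, 18.8 ± 1.02 for Gas6 and 5.66 ± 0.187 for Dock1 (SD, n = 3 each). Axl at 1.94 ± 0.802 FPKM and Tyro3 at 0.453 ± 0.0802 FPKM, as deposited, came last of the detected genes. From its full-length rows alone Axl averaged 0.753 ± 0.157 FPKM in shNC and 0.283 ± 0.0968 FPKM in shTrem2. In shTrem2 Lrp1 led alone at 139 ± 4.76 FPKM, followed by Mfge8 at 41.6 ± 5.28, Elmo1 at 25.7 ± 2.10, Gas6 at 20.0 ± 1.78, Pros1 at 14.9 ± 1.69 and Dock1 at 9.69 ± 0.906 FPKM. Pros1 thus moved from the third place to the fifth. Tyro3 and Axl, at 0.427 ± 0.0896 and 0.423 ± 0.145 FPKM, overlapped there. Apart from these pairs and the undetected genes, neighbours in the order did not overlap.

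The wider pathway was described through lists of genes. Of 16 other phosphatidylserine receptors 12 were tested, of which 6 rose and 3 fell at an adjusted p under 0.05 (edgeR), against 28.8% and 28.6% of all genes, with a median log2 fold change of 0.28. By the full rule 5 rose and 2 fell, against 9.46% and 12.4% of all genes. The list included the integrin genes Itgav, Itgb3 and Itgb5, whose proteins reach the lipid through bridging proteins such as Mfge8. At the adjusted p they are counted in both directions. Cd300a, an inhibitory receptor that binds the lipid, went from 44.9 ± 4.64 to 104 ± 13.7 CPM (SD, n = 3 each), a log2 fold change of 1.25. Havcr2, which encodes TIM-3, went from 29.0 ± 0.398 to 43.3 ± 3.85 CPM, a log2 fold change of 0.61. The other risers, Cd36, Itgb3 and Scarf1, had means of at most 3.32 CPM. The 2 that fell were Stab1, a scavenger receptor of the lipid, from 12.1 ± 0.611 to 0.514 ± 0.271 CPM, and Adgrb1, an Elmo-binding receptor, from 0.886 ± 0.0685 to 0.428 ± 0.109 CPM. Some calls were lost under other fits. Among scarce genes, Adgrb1 was not called by DESeq2 (adjusted p = 0.189) or with the replicate number as a block in edgeR (0.0677). Scarf1 was not called by DESeq2 (0.0592). With library size as the only scaling, 6 genes of this list were called in place of 7. That scaling put the median log2 fold change of all genes at -0.034. Havcr2, at 0.613, was the called gene nearest the log2 fold threshold of 0.585.

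Of 10 other bridging molecules 3 were tested and all 3 rose at the adjusted p, against 28.8% of all genes. Edil3, which like Mfge8 joins phosphatidylserine to integrins, was the 1 that passed the fold threshold. It went from 10.2 ± 1.51 to 18.2 ± 3.91 CPM (SD, n = 3 each), a log2 fold change of 0.87 with an edgeR adjusted p of 2.78e-04. Its level stayed far under that of Mfge8. Over all genes 9.46% rose by the full rule. The 3 enzymes that gamma-carboxylate Gas6 and protein S or recycle the vitamin K they need did not pass. Their log2 fold changes were -0.08 for Ggcx, 0.16 for Vkorc1 and -0.04 for Vkorc1l1.

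The engulfment machinery list held 21 genes, of which 19 were tested. At the adjusted p 9 rose, 3 fell and 7 did not pass, while 57.4% of all genes passed, 28.8% higher and 28.6% lower. By the full rule 3 rose and 1 fell, against 9.46% and 12.4% of all genes. Dock5, a relative of Dock1, went from 41.5 ± 1.60 to 61.9 ± 3.97 CPM, and Cdc42, a GTPase of the actin cytoskeleton, from 305 ± 1.10 to 452 ± 17.1 CPM (SD, n = 3 each). Their log2 fold changes were 0.61 and 0.60, both just over the fold threshold. Bcar1 also rose and Elmo3, an Elmo1 relative, fell, both at means under 3 CPM. With library size as the only scaling, 2 genes of this list were called in place of 4. That scaling put the median log2 fold change of all genes at -0.034. Dock5 and Cdc42, and not the scarce Bcar1 and Elmo3, were the called genes nearest the fold threshold.

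Among 12 genes of the LDL receptor family and the Lrp1 chaperone 10 were tested, and 3 rose and 5 fell at the adjusted p, against 28.8% and 28.6% of all genes. Sorl1, a sorting receptor, was the 1 that passed the full rule, from 145 ± 0.952 to 237 ± 9.78 CPM (SD, n = 3 each). By that rule 9.46% of all genes rose and 12.4% fell. Of 3 ADAM proteases, a family that sheds receptors from the cell surface, Adam17 had a log2 fold change of 0.22 and Adam10 of 0.25, and both rose at the adjusted p, while Adam9 fell by 0.13. None of these proteases passed the fold threshold.

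Of 6 nuclear receptors known to act on clearance genes 5 were tested, and 2 rose and 3 fell at the adjusted p, against 28.8% and 28.6% of all genes. Nr1h3, which encodes the oxysterol sensor LXRα, and Rxra, its dimer partner, passed the full rule at means of at most 5.02 CPM. Of 8 genes for lipid exposure and self signals 4 rose and 4 fell at the adjusted p alone, against the same 28.8% and 28.6%. By the full rule 1 rose and 1 fell. For both of these lists the shares of all genes by the full rule were 9.46% higher and 12.4% lower. Sirpa, the receptor for the CD47 signal that restrains uptake, went from 181 ± 12.5 to 400 ± 5.68 CPM with a log2 fold change of 1.18 and an edgeR adjusted p of 1.12e-09. Xkr8, a scramblase that exposes phosphatidylserine, was the 1 that fell by the full rule, by 0.70 on the log2 scale.

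**Figure D5:**
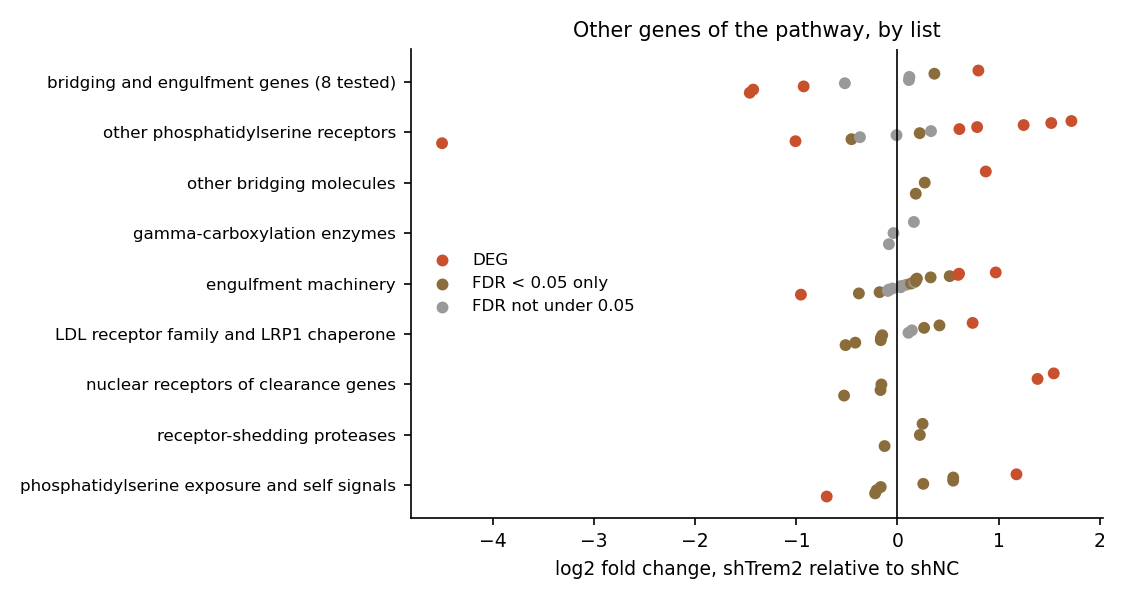
Log2 fold change of each tested gene in the lists, shTrem2 against shNC, 1 row a list. Red points passed both thresholds, brown points the adjusted p alone and grey points neither, and the list medians lie between -0.20 for the bridging and engulfment genes and 0.28 for the other phosphatidylserine receptors.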

How the data were processed

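Total RNA of the 6 libraries was polyA-selected and sequenced with a stranded kit. Per the labels' processing notes, reads were handled with fastp, HISAT2 and StringTie on GRCm39. The counting tool and annotation release are not given in the sources used here. The authors deposited estimated counts in rows that carry a gene symbol but no transcript name, several rows a gene, and values per gene that matched FPKM when set against those counts, although the header names no unit. The authors' group means of FPKM were not used. Estimated counts were summed per symbol and rounded, and rows with no symbol, 0.908% to 1.12% of counts, were left out of library sizes. CPM is the count scaled to the total of named counts.

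Genes were filtered with filterByExpr, scaled with TMM and tested in edgeR 4.0.16 (quasi-likelihood, R 4.3.3) with Benjamini-Hochberg adjustment over all tested genes, and the scripts were tested on simulated data. Shares and ratios used two-sided exact permutation tests. Alternatives were DESeq2 1.42.0, limma 3.58.1, other scalings, filters and thresholds, each library left out, and a replicate block. The replicate numbers are not said to mark a shared day, so no pairing was used in the main fit. In a separate check same-numbered libraries did not deviate together (correlations -0.00571 to -0.00156).

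The members and lists were chosen with earlier results of these data known. The rule named the 10 genes, Trem2, up to 3 called genes per list whose log2 CPM averaged 3 or more, and every gene of a list of 3. Other genes were named only in counts of 5 or fewer, as cell type markers or as the integrin genes of a list. Transcript lengths came from GENCODE M21 and promoters from RefSeq (GRCm38.p6). These are not the authors' build and were used for sequences and lengths only. Limits given for counts of 0 cover counting error only. The SE of a log2 fold change was its absolute value divided by the square root of the F statistic of the edgeR quasi-likelihood test. The 95% intervals were built from this SE with a t distribution and include the spread between libraries.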

Additional observations from a re-analysis of the deposited data

How the results depend on the processing

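The 17 alternatives kept the direction and side of the threshold of Mfge8, Pros1, Axl, Lrp1, Dock1, Tyro3 and Gas6. Elmo1 passed without shTrem2 replicate 2 (0.15, edgeR adjusted p = 0.0350). With no fold threshold 2 of the genes were called higher. Over all genes 7763 were then called in either direction, 3898 of them higher. At a fold over 2 the genes called higher were 0, and 1339 genes over all were called in either direction. The genes called lower went from 3 to 2, since Pros1 changed 1.90-fold. With library size only, 2 genes of the engulfment machinery list were called. The other phosphatidylserine receptors called went from 7 to 5 with DESeq2 and to 6 with library size only or the block. Trem2 ranged from -2.08, on log2(FPKM + 0.1), to -0.77.

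Leaving out each library in turn gave log2 fold changes of -1.57 to -1.38 for Mfge8, -0.99 to -0.84 for Pros1, -1.62 to -1.22 for Axl, -0.69 to -0.26 for Tyro3, 0.05 to 0.17 for Gas6, 0.35 to 0.39 for Lrp1, 0.080 to 0.15 for Elmo1 and 0.71 to 0.85 for Dock1, and 2723 to 3017 called genes. Over all alternatives the highest adjusted p was 0.00692 for Axl and the lowest was 0.146 for Tyro3. With the replicate number as a block 2911 genes were called, and no call among the 8 genes changed (adjusted p of 0.00104 for Axl and 0.0685 for Elmo1). The Axl share of TAM receptor FPKM differed by -34.2 to -13.0 percentage points over its alternatives. Depth limits Axl, Tyro3, Mertk and Gulp1, none of which had over 62 reads in a library.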
